A study of Danio rerio with 4 samples.

Results

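Genes for collagens, laminins and the glycoproteins and proteoglycans that bind them were examined in hearts of zebrafish embryos that overexpressed bmp2b. Members were chosen by symbol in the platform's annotation, from the collagen, laminin, fibulin, fibrillin, thrombospondin, matrilin, nidogen and small leucine-rich proteoglycan families with sparc, tenascin, periostin, emilin, efemp, agrin, perlecan and latent TGF-beta-binding proteins. The rule reads symbols and no measured value, and 0 symbols of fibrillin, periostin or latent TGF-beta-binding protein genes matched. It took in 117 of the 43603 probes on the array, for 73 of 15528 named genes. Of these, 22 genes belong to basement membranes, 48 to interstitial or pericellular matrix, and 3 are transmembrane collagens.

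The Bmp2b group (2 arrays) was Tg(hsp70l:bmp2b)fr13, a line in which the heat-inducible hsp70l promoter drives bmp2b in any heated cell and not in heart cells alone. The wild-type group (2 arrays, WT) lacked the transgene. Embryos of both groups were heat-shocked at 18 hours post fertilization (hpf) for 30 min at 37 °C and recovered until 21 to 23 hpf, when whole hearts were dissected by hand and pooled. RNA of each pool was read on a single-colour Agilent array, and nothing in the labels says that pools of a group came from separate clutches, so p-values measure the spread between these arrays.

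A basement membrane is a thin sheet under epithelia and around muscle and vessels. Its laminin network, made of alpha, beta and gamma chains, is tied to a collagen IV network by nidogen and perlecan, and cells hold on to it through integrins and dystroglycan. Interstitial matrix is built on fibrils of collagens I and V, whose width and spacing are set by small leucine-rich proteoglycans such as decorin, lumican and fibromodulin. In the early heart tube a hyaluronan-rich jelly with basement membrane components lies between the myocardium and the endocardium.

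Levels below are normalized log2 intensities, and fold changes are Bmp2b over wild type with the standard error of the limma fit. Bmp2b array 1 was the dimmest, with 34.1% of probes above background, against 46.2% on Bmp2b array 2 and 57.4% and 57.1% on the wild-type arrays. The bmp2b probe lay at 13.74 and 14.03 in Bmp2b hearts and at 7.86 and 8.09 in wild-type hearts. Over 25 bright probes printed in 5 spots, the Bmp2b arrays lay 1.04 log2 units apart (root mean square), where the scatter of spots alone gives 0.123. The wild-type arrays lay 0.0733 apart, where spot scatter alone gives 0.121, so they were no further apart than repeat spots of an array. Calls were therefore also made with the wild-type arrays averaged and counted as 1 sample, with a variance prior that follows intensity (trend and robust). Genotype and slide cannot be told apart, because the Bmp2b arrays shared 1 slide that held no wild-type array. All 8 measured myocardial markers, among them myl7 and nkx2.5, were above background on all arrays.

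Of the 73 genes, 46 had a probe above background on at least 2 arrays and were tested, each by its brightest such probe. In Bmp2b hearts 7 rose (fmoda, dcn, sparc, thbs2b, lama1, fbln1 and col5a2a), 3 fell (lamb1a, lamb2 and agrn) and 36 did not pass an adjusted p of 0.05 (limma, Benjamini-Hochberg over all probes). Over all 11376 genes tested, 9% were called higher and 8.22% lower, against 7 and 3 of 46 here, so lower calls were about as frequent as the background and higher calls somewhat more frequent. By probe, 8 of the 72 matrix probes tested rose and 5 fell, where 6.82% and 9.03% of all probes did. Scaling to the array's 75th percentile left 4 matrix genes higher (dcn, fmoda, lama1 and thbs2b) and 1 lower (lamb1a), where 2.63% and 1.59% of all genes were called. The authors' processed intensities so scaled left 3 (fmoda, lama1 and thbs2b) and 1 (lamb1a), where 2.87% and 1.49% were. sparc, fbln1, col5a2a, lamb2 and agrn passed with neither of these scalings. An eleventh gene, fbln2, fell on a dimmer probe only. The groups did not overlap for 35 of the 46 genes, or 76.1%, where the share over all genes was 68.6%. These 35 included all 10 called by the brightest probe, which is no separate support, because the calls were made on the same arrays. With wild type as 1 sample, 0 of the 46 genes were called higher and 0 lower by their brightest probe (10 at an unadjusted p under 0.05), where 0.448% and 0.404% of all genes were. Among the 72 probes that fit called 1 lower, the dimmer fbln2 probe, and 0 higher (0.462% and 0.311% over all probes). Leaving out either wild-type array left 0 matrix genes past the threshold in limma (10 at an unadjusted p under 0.05 without array 1, 9 without array 2), and 0 of all 11376 genes. Leaving out a Bmp2b array takes the error from the wild-type pair only: 29 matrix genes were then called higher and 10 lower with array 1 left out (35.8% and 29.8% over all genes), and 22 and 15 with array 2 left out (34% and 35.8%).

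**Figure D1:**
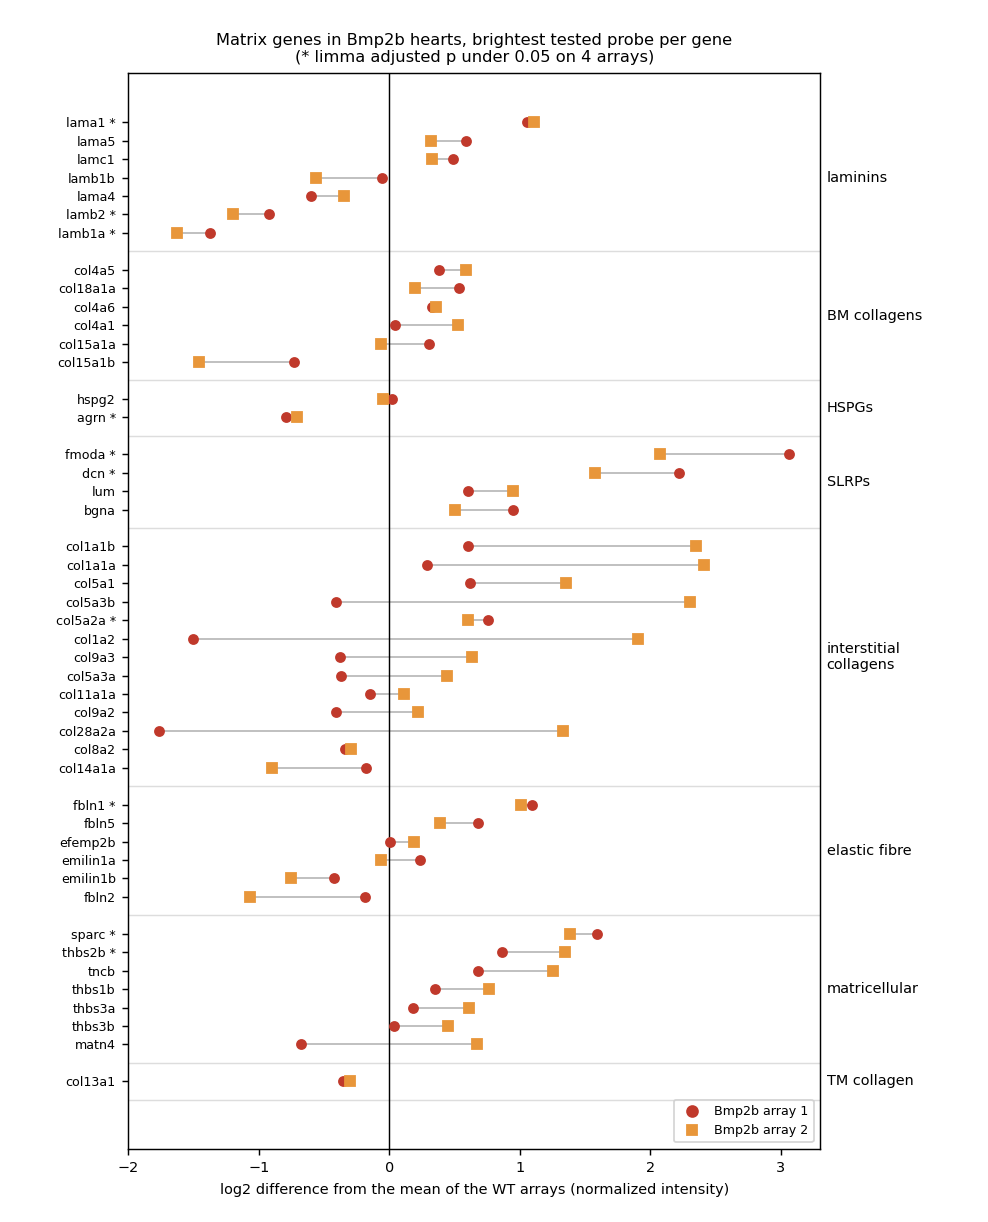
Difference of each Bmp2b array from the mean of the wild-type arrays (x axis, log2 of normalized intensity) for the 46 tested matrix genes, ordered by family (BM, basement membrane; HSPGs, heparan sulphate proteoglycans; SLRPs, small leucine-rich proteoglycans; TM, transmembrane). Circles are Bmp2b array 1, squares are Bmp2b array 2, and an asterisk marks an adjusted p under 0.05; both arrays lie on the same side of wild type for 35 genes and on opposite sides for 11.

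Among tested genes the 2 classes differed in their medians, but without the filter on dim probes the medians were nearly equal. Over 30 tested interstitial and pericellular genes the median log2 fold change was 0.46, with 6 higher and 0 lower in limma (2 lower at an unadjusted p under 0.05), and over 15 tested basement membrane genes it was 0.12, with 1 higher and 3 lower. Over all tested genes the median was 0.01, with 9% higher and 8.22% lower. When the genes not above background were kept in, the interstitial median over all 48 genes was 0.14 and the basement membrane median over all 22 genes was 0.15. On Bmp2b array 1 alone the medians of the tested genes were 0.21 for interstitial and 0.04 for basement membrane genes, and on array 2 they were 0.65 and -0.05. Averaging all probes of each gene gave a basement membrane median of -0.01. Scaling to the array median moved the median of all genes to -0.89, and gave -0.09 for interstitial and -0.94 for basement membrane genes.

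Among basement membrane genes the laminin chains moved in opposite directions. The beta chains lamb1a and lamb2 fell and the alpha chain lama1 rose, the latter on 1 of its 2 probes, each by at least 2-fold. The beta chain gene lamb1a, which in zebrafish is needed for the notochord and limits the addition of cells to the growing heart tube, lay at 9.61 and 9.36 in Bmp2b hearts and at 10.92 and 11.05 in wild-type hearts. Its log2 fold change was -1.50 ± 0.15 (limma adjusted p = 0.0204), a 2.83-fold lower level. A further lamb1a probe gave 8.05 and 7.61 in Bmp2b hearts, against 9.11 and 9.19 in wild-type hearts (-1.32, adjusted p = 0.0290). Both probes thus put the Bmp2b arrays below both wild-type arrays.

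The second beta chain gene that fell, lamb2, encodes a chain found in mammals in synaptic, renal and vascular basement membranes. It lay at 10.56 and 10.28 in Bmp2b hearts and at 11.40 and 11.56 in wild-type hearts, with a log2 fold change of -1.06 ± 0.15 (limma adjusted p = 0.0295). The lamb1b probe, for the paralog of lamb1a, read 9.21 and 8.71 in Bmp2b hearts, against 9.24 and 9.30 in wild-type hearts, and did not pass (-0.31, adjusted p = 0.345). Bmp2b array 1 lay close below wild type for lamb1b, and array 2 further below. The beta chain probes of lamb2l, lamb3 and lamb4 were above background on too few arrays for a test. In the genome lamb4 neighbours lamb1a and lamb2l neighbours lamb2, with 0 protein-coding genes between them in the current zebrafish gene table.

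Alpha chains went both ways. The alpha chain of embryonic laminin, lama1, lay at 7.69 and 7.75 in Bmp2b hearts and at 6.61 and 6.67 in wild-type hearts, with a log2 fold change of 1.08 ± 0.11 (limma adjusted p = 0.0207). A second lama1 probe, about as bright in wild-type hearts, went the other way. It read 6.09 and 6.51 in Bmp2b hearts, against 6.65 and 6.70 in wild-type hearts (-0.38, limma adjusted p = 0.218). The lama1 rise thus rests on 1 of 2 probes. lama5, an alpha chain of epithelial and fin-fold basement membranes, read 14.77 and 14.50 in Bmp2b hearts, against 14.23 and 14.13 in wild-type hearts (0.45, adjusted p = 0.110). lama4, the alpha chain of vessel walls, read 10.14 and 10.40 in Bmp2b hearts, against 10.71 and 10.78 in wild-type hearts (-0.47, adjusted p = 0.0949). The gamma chain gene lamc1, the common partner of the alpha and beta chains, had values of 0.41, 0.37 and -0.01 on 3 probes, the brightest with an adjusted p of 0.0943. The groups did not overlap for these 3 genes on the brightest probe, as for 68.6% of all tested genes. Scaling to the array median turned the values of lama5 and lamc1 to -0.85 and -0.89, at the median of all genes. lamc3 was not above background on any array.

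Endothelial markers were measured beside these chains, since lama4 and lamb2 belong to vessel walls. Of 8 tested, 1 fell (sox18, -1.14) and 0 rose in limma (0 at an unadjusted p under 0.05). Over all genes 8.22% were lower and 9% higher. The median log2 fold change of these markers was -0.32, and cdh5 had a value of -0.96 that did not pass (limma adjusted p = 0.0596). Their summed linear level was 62993 and 45452 in Bmp2b hearts, against 55033 and 55449 in wild-type hearts, so that wild type stood between the Bmp2b arrays. The largest terms of this sum were tek and egfl7, with values of 0.17 and 0.03 that did not pass. Of the 8 markers 5 had negative and 3 had positive values. By their brightest probes cdh5, kdrl, tie1 and sox18 lay below wild type on both Bmp2b arrays, and kdr lay above. All 8 were above background on at least 2 arrays, sox18 on the wild-type arrays only, so that its value is bounded by the detection limit. Their part in the laminin values was not tested.

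The other tested basement membrane genes, 6 for collagens and 2 for heparan sulphate proteoglycans, gave 1 call, lower. Over all genes 8.22% were called lower. agrn encodes agrin, a heparan sulphate proteoglycan that clusters receptors at the nerve-muscle synapse and binds dystroglycan, and it lay at 6.86 and 6.94 in Bmp2b hearts and at 7.66 and 7.64 in wild-type hearts (-0.75 ± 0.11, limma adjusted p = 0.0303). Its probe was above background on 1 of the 2 Bmp2b arrays. The perlecan gene hspg2 read 6.37 and 6.30 in Bmp2b hearts, against 6.34 and 6.36 in wild-type hearts, with its probe below background on both Bmp2b arrays, so that a lower level would not be detectable there. nid1a, for nidogen, was below background on all arrays on both of its probes.

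Collagen IV chains, which form the sheet's second network, had positive values that did not pass, though col4a1 stood at -0.94 with scaling to the array median, near the median of all genes. col4a1 read 9.42 and 9.90 in Bmp2b hearts and 9.34 and 9.41 in wild-type hearts (0.28 ± 0.20, adjusted p = 0.368). col4a5 and col4a6, which neighbour each other with 0 protein-coding genes between them, gave 0.48 and 0.34 on the log2 scale, with adjusted p-values of 0.0867 and 0.122, and a dimmer col4a5 probe gave -0.23. The multiplexin gene col15a1b, for a collagen that bridges basement membranes and fibrils, lay at 12.08 and 11.35 in Bmp2b hearts, against 12.80 and 12.82 in wild-type hearts. The groups did not overlap, as for 68.6% of all tested genes, and both Bmp2b arrays were the lower ones. The col15a1b log2 fold change of -1.10 ± 0.28 missed the threshold (limma adjusted p = 0.0709). Its paralog col15a1a had a value of 0.12, and col18a1a, whose product yields endostatin, had values of 0.36, -0.10 and -0.46 on 3 probes, so the sign of col18a1a depends on the probe.

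**Figure D2:**
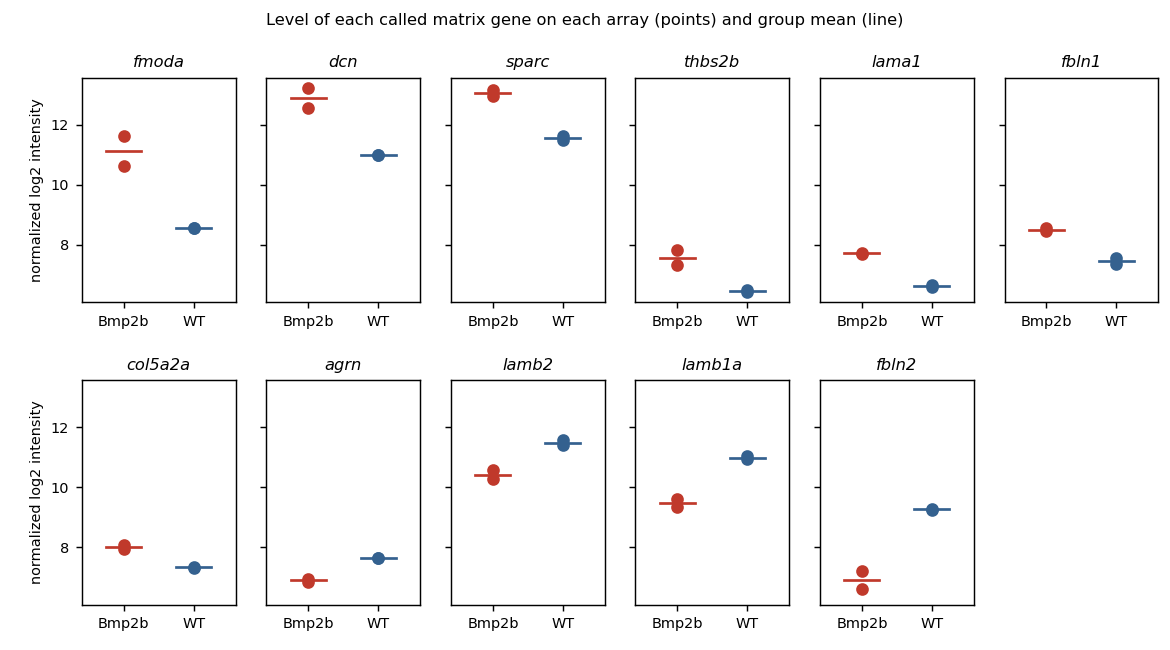
Normalized log2 intensity (y axis) of the 11 matrix genes with a called probe, on each Bmp2b array (red points, left) and each wild-type array (blue points, right) with the group mean as a line. The genes were picked by a call on these same arrays, so the gap between groups in each panel is no further support. The fbln2 panel shows its dimmer probe, which alone passed, and levels are not comparable between genes.

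Small leucine-rich proteoglycan genes lay above wild type on both Bmp2b arrays in all 4 tested members. Over all tested genes the groups did not overlap, in either direction, for 68.6%. The median log2 fold change of the 4 was 1.34, and 2 rose, where 9% of all genes were higher. Over all 6 members, with no filter on dim probes, the median was 0.75. With scaling to the array median lum stood at -0.08, above the median of all genes (-0.89). The largest change among the brightest probes was that of fmoda, for fibromodulin, which binds collagen I and guides its assembly into fibrils and is prominent in tendon. It lay at 11.62 and 10.63 in Bmp2b hearts and at 8.56 and 8.56 in wild-type hearts, a 5.94-fold higher level (2.57 ± 0.36, limma adjusted p = 0.0285). Bmp2b array 1 was about a log2 unit above array 2, and both were more than 2 units above wild type.

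Decorin, encoded by dcn, wraps collagen fibrils and can bind TGF-beta. It lay at 13.21 and 12.57 in Bmp2b hearts and at 10.98 and 11.00 in wild-type hearts, 3.73-fold higher (1.90 ± 0.25, limma adjusted p = 0.0264). A far dimmer dcn probe read 6.69 and 6.80 in Bmp2b hearts, against 6.73 and 6.86 in wild-type hearts (-0.05), and so showed no separation. The lumican gene lum, which lies next to dcn in the genome with 0 protein-coding genes between them, read 7.99 and 8.33 in Bmp2b hearts and 7.38 and 7.39 in wild-type hearts. Its log2 fold change was 0.77 ± 0.16 with an adjusted p of 0.0503, just outside the threshold. The biglycan gene bgna read 7.04 and 6.60 in Bmp2b hearts, against 6.13 and 6.07 in wild-type hearts (0.72, adjusted p = 0.0754), and was above background on 1 array of each group. fmodb and bgnb were not above background on any array. With wild type as 1 sample the adjusted p was 0.0595 for fmoda and 0.0655 for dcn.

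Markers of pericardium and other mesothelium moved the same way as these proteoglycans. Of 6 tested, 3 rose (sfrp5, aldh1a2 and jam2b) and 0 fell, where 9% of all genes were higher and 8.22% lower. None of the 6 had a negative value, where 5571 of all 11376 tested genes did. The median log2 fold change of the 6 was 1.34, and tbx18 and wt1a were below background on all arrays. The summed linear level of the 6 was 46679 and 35587 in Bmp2b hearts, against 21478 and 21691 in wild-type hearts. Its largest term was hand2, also listed as a myocardial marker, which did not pass (0.49, limma adjusted p = 0.102). hand2 lay at 14.88 and 14.56 in Bmp2b hearts and at 14.22 and 14.23 in wild-type hearts. As fmoda and dcn did, this sum stood higher on Bmp2b array 1 than on array 2. That order was not particular to it, since the sums of myocardial, endothelial and blood markers had it too. lum and the marker aldh1a2 stood lower on array 1 than on array 2. The part of the pericardial and mesothelial markers in the proteoglycan result was not tested. In pooled hearts more cells of a type and more RNA per cell cannot be told apart, which holds for each change given here.

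Matricellular glycoproteins, which modulate contact between cells and matrix, had positive values in 6 of 7 tested genes, with a median of 0.56. sparc encodes a collagen-binding glycoprotein of many matrix-producing cells. It lay at 13.15 and 12.94 in Bmp2b hearts and at 11.51 and 11.62 in wild-type hearts, 2.80-fold higher (1.49 ± 0.14, limma adjusted p = 0.0203). Its second probe was also bright, at 11.01 and 10.99 in Bmp2b hearts and 10.84 and 10.82 in wild-type hearts, a difference of 0.17 that did not pass (adjusted p = 0.324). The probes therefore put the size of the sparc difference at 0.17 or 1.49 log2 units, in the same direction.

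Among thrombospondins, secreted proteins that bind matrix and cell-surface receptors, thbs2b rose. It lay at 7.33 and 7.81 in Bmp2b hearts and at 6.44 and 6.51 in wild-type hearts (1.10 ± 0.20, limma adjusted p = 0.0415). On Bmp2b array 1 its raw intensity, 54.5, was only just above background, and its other probes were below background on all arrays. The gene did not pass with cyclic loess, with quantile-normalized processed intensities or without the filter on dim probes. With both scalings to the 75th percentile thbs2b passed and sparc did not. thbs1b, thbs3a and thbs3b had values of 0.56, 0.39 and 0.24 that did not pass. The tenascin gene tncb, for a protein of remodelling mesenchyme, read 11.42 and 11.99 in Bmp2b hearts, against 10.80 and 10.69 in wild-type hearts (0.97 ± 0.23, adjusted p = 0.0641), while a dimmer probe gave -0.24. The matrilin gene matn4 stood at 7.57 and 8.92 on the Bmp2b arrays, on either side of the wild-type levels of 8.23 and 8.25. Its value of 0.00 thus averages opposite differences.

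Elastic-fibre and microfibril genes went both ways. The fibulin gene fbln1, whose mammalian product takes part in the turnover of versican in the heart, lay at 8.55 and 8.47 in Bmp2b hearts and at 7.55 and 7.37 in wild-type hearts (1.05 ± 0.13, limma adjusted p = 0.0234). A second fbln1 probe passed as well (0.63, adjusted p = 0.0448) and another, at 0.59, did not. The dimmest was below background on all arrays. fbln2, a fibulin of vessel walls and of the heart's endocardial cushions in mammals, was 5.17-fold lower on its dimmer probe, at 7.20 and 6.60 in Bmp2b hearts against 9.26 and 9.29 in wild-type hearts (-2.37 ± 0.23, limma adjusted p = 0.0204, and 0.0452 with wild type as 1 sample). On the brighter fbln2 probe the levels were 14.04 and 13.16 in Bmp2b hearts and 14.27 and 14.19 in wild-type hearts (-0.63, adjusted p = 0.245). Both fbln2 probes stood lower on both Bmp2b arrays, by very different amounts. On the Bmp2b arrays the raw intensities of the dimmer fbln2 probe, 51 and 59, were little above background. The size of its fall is thus bounded by the detection limit. The elastin-binding fibulin gene fbln5 (0.53), efemp2b (0.09) and the emilin genes emilin1a (0.08) and emilin1b (-0.59) did not pass.

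Fibrillar collagens gave 1 call, higher, among 8 tested genes, where 9% of all genes were called higher. col5a2a, for a chain of collagen V, which nucleates collagen I fibrils, lay at 8.08 and 7.94 in Bmp2b hearts and at 7.33 and 7.33 in wild-type hearts (0.68 ± 0.12, limma adjusted p = 0.0385). Another col5a2a probe gave 0.52 (adjusted p = 0.0567). With scaling to the array median, under which 0 genes of the array passed, its value was -0.19, still above the median of all genes (-0.89). Its partner chain gene col5a1 read 9.04 and 9.77 in Bmp2b hearts, against 8.32 and 8.52 in wild-type hearts (0.99 ± 0.29, adjusted p = 0.0916). The groups did not overlap for either gene, as for 68.6% of all tested genes.

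The type I collagen genes separated the Bmp2b arrays from each other more than from wild type. col1a1a lay at 8.28 and 10.40 in Bmp2b hearts and at 7.98 and 8.01 in wild-type hearts, and the log2 fold change was 1.35 ± 0.75 with an adjusted p of 0.271. col1a1b lay at 8.90 and 10.64 in Bmp2b hearts and at 8.20 and 8.39 in wild-type hearts (1.48 ± 0.62, adjusted p = 0.177). In both genes array 2 was the high one, and array 1 stood close above wild type. The brightest col1a2 probe read 8.76 and 12.18 in Bmp2b hearts, against 10.24 and 10.30 in wild-type hearts (0.20 ± 1.20, adjusted p = 0.920), with wild type between the Bmp2b arrays. The other 3 col1a2 probes gave 1.90, 1.85 and 0.86, and none passed. Without Bmp2b array 1 the log2 fold changes of col1a1a, col1a1b and the brightest col1a2 probe were 2.41, 2.35 and 1.91, and without Bmp2b array 2 they were 0.29, 0.60 and -1.51.

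In all, 7 of the 46 genes differed at least 2-fold between the Bmp2b arrays, or 15.2%, where 6.52% of all tested genes did. All 7 were higher on array 2, as were 590 of the 742 such genes over the whole array, and all were interstitial or pericellular: next to the type I chains they were col5a3b, col9a3, col28a2a and matn4. col5a3b read 7.81 and 10.52 in Bmp2b hearts, against 8.20 and 8.23 in wild-type hearts. Of the 15 basement membrane genes, 0 differed this much. Between the wild-type arrays the median difference over the 46 genes was 0.06, against 0.39 between the Bmp2b arrays.

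Markers of skin and neural tissue showed the same split between the arrays. Of 8 tested epidermal markers 7 were higher on Bmp2b array 2 than on array 1, and their summed linear level was 40459 and 109710 in Bmp2b hearts, against 31107 and 31894 in wild-type hearts. cyt1 was below background on all arrays. Of the 8, 1 rose (icn, 0.78, limma adjusted p = 0.0315) and 0 fell. On Bmp2b array 1 the brightest of these markers, icn (15.05 and 14.91 in Bmp2b hearts, 14.19 and 14.22 in wild-type hearts), stood above wild type, while the median difference of the 8 markers from wild type was -0.30, and on array 2 it was 1.66. The keratin gene krt4 lay at 11.73 and 15.78 in Bmp2b hearts and at 12.94 and 12.97 in wild-type hearts. Wild type thus stood between the Bmp2b arrays, as for the brightest col1a2 probe. All 12 neural markers were higher on array 2, with a summed level of 5063 and 19282 in Bmp2b hearts and 9951 and 10184 in wild-type hearts. The 9 notochord and floor plate markers, also all higher on array 2, summed to 4017 and 8193 in Bmp2b hearts and to 3083 and 3142 in wild-type hearts. The largest term of this sum was cav1. The median difference of the 9 markers from wild type was -0.12 on array 1 and 1.37 on array 2. Of these 9, 2 rose (cav1, 1.52, and foxa, 1.14) and 0 fell, where 9% of all genes were higher. Of the 8 myocardial markers 1 rose and 3 fell, where 9% of all genes were higher and 8.22% lower. The sum of these markers was 561860 and 428880 in Bmp2b hearts, against 759940 and 658310 in wild-type hearts. Of 8 tested neural crest markers 7 were higher on array 2, and 1 rose (snai2, 2.75, limma adjusted p = 0.0138). Their sum was 6207 and 8975 in Bmp2b hearts, against 1913 and 1934 in wild-type hearts. Its largest term was snai2, the marker not higher on array 2. snai2 lay at 12.27 and 12.25 in Bmp2b hearts and at 9.48 and 9.55 in wild-type hearts. crestin was below background on all arrays. The sum of 6 tested blood markers was 14358 and 10710 in Bmp2b hearts, against 14710 and 14621 in wild-type hearts, and 1 fell (tal1, -0.94). Of 7 tested skeletal muscle markers 0 rose and 1 fell (acta1b, -1.53). The sum of these 7 was 74536 and 60450 in Bmp2b hearts, against 148070 and 115880 in wild-type hearts. Its largest terms were the actin genes acta1b and actc1b. Of the 7 markers 4 had positive and 3 had negative values, with a median of 0.05. The part of these markers in the collagen values was not tested.

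**Figure D3:**
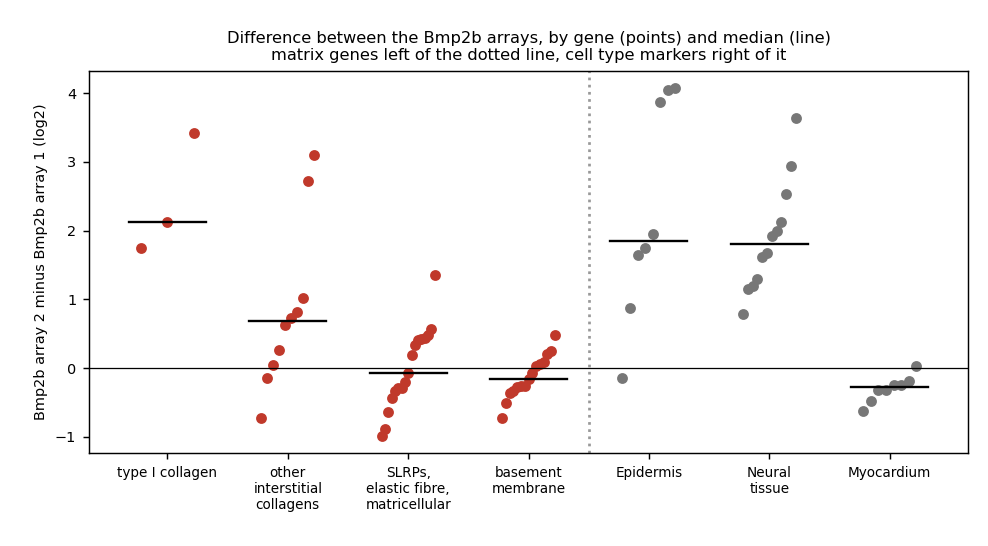
Bmp2b array 2 minus Bmp2b array 1 (y axis, log2) for each tested gene (points) with the median of its set (line). Type I collagen genes have a median of 2.12, near that of the epidermal and neural markers, and basement membrane genes one of -0.16.

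The remaining interstitial collagens were dim or did not pass. col14a1a, for a fibril-associated collagen of embryonic skin, was lower on both of its probes, with values of -0.54 and -0.48 (adjusted p = 0.239 and 0.124). The cartilage and notochord collagen genes col9a2 (-0.10), col9a3 (0.13) and col11a1a (-0.02) had values smaller than their standard errors, and the col11a1a probe was below background on both Bmp2b arrays. The short-chain collagen gene col8a2 (-0.32) and the transmembrane collagen gene col13a1 (-0.33) were below background on both Bmp2b arrays, so their values are bounded by the detection limit. The 27 genes not tested included col6a2, col10a1a, col11a1b, col11a2, col27a1b, efemp1, efemp2a, matn1, matn3a, sparcl1, thbs4b and lama2. Of the 45 probes not tested, 40 were above background on 0 arrays and 5 on 1 array. Of the 5, 3 were above background on a Bmp2b array and on no wild-type array. These were probes of thbs4b, lama2 and col5a2a, and they had no test. Each was above background on only 1 Bmp2b array, so no fold is given. For the 40 probes no direction can be read.

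Genes that fold, modify and crosslink collagen were looked at beside the matrix genes. Of 22 tested, 5 rose, 1 fell and 16 did not pass, with a median log2 fold change of 0.29, where 9% of all genes were higher and 8.22% lower. The catalytic subunits of prolyl 4-hydroxylase, which stabilizes the collagen helix, went in opposite directions. p4ha1b lay at 12.52 and 11.90 in Bmp2b hearts and at 10.36 and 10.45 in wild-type hearts, 3.51-fold higher (1.81 ± 0.24, limma adjusted p = 0.0273). p4ha2 lay at 13.95 and 13.73 in Bmp2b hearts and at 14.53 and 14.62 in wild-type hearts (-0.74 ± 0.13, limma adjusted p = 0.0407), with -1.47 and -1.17 on its other probes. Also higher were tgm2b, for a crosslinking transglutaminase (1.33; 0.31 on another probe), sec23a, for a coat protein of the vesicles that carry procollagen (0.94; -0.37 on another probe), p3h4, for a partner of the collagen hydroxylases (0.77; 0.11 on another probe), and ppib, for the cyclophilin that helps the helix fold (0.61). With scaling to the array median sec23a, p3h4 and ppib stood at -0.36, -0.13 and -0.83, where the median of all genes was -0.89 and 0 genes of the array passed. The collagen chaperone gene serpinh1b had a value of 0.17 (adjusted p = 0.542), and one of -0.75 on another probe. With wild type as 1 sample p4ha1b had an adjusted p of 0.0870.

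Of 17 tested receptors of laminin and collagen, 2 rose, 2 fell and 13 did not pass, with a median of 0.09, so calls in each direction were about as frequent as over all genes (9% higher, 8.22% lower). bcam, for a cell-surface receptor of the laminin alpha 5 chain, lay at 14.42 and 14.35 in Bmp2b hearts and at 12.59 and 12.57 in wild-type hearts. It was 3.49-fold higher (log2 fold change 1.80 ± 0.11, limma adjusted p = 0.0153) and passed with wild type as 1 sample (adjusted p = 0.0415). The dystroglycan gene dag1, for a receptor that binds laminin, agrin and perlecan, lay at 11.18 and 11.23 in Bmp2b hearts and at 12.20 and 12.11 in wild-type hearts (-0.95 ± 0.11, limma adjusted p = 0.0234). The laminin integrin subunit gene itga6a lay at 7.31 and 7.42 in Bmp2b hearts and at 8.50 and 8.60 in wild-type hearts (-1.18 ± 0.12, limma adjusted p = 0.0204), but another itga6a probe gave 1.17 and did not pass. itga3a, for a second laminin-binding subunit, rose by 0.56 (limma adjusted p = 0.0464) at a level near background. Its brighter paralog itga3b went the other way. The brightest itga3b probe did not pass (-0.41), and a dimmer one was lower (-0.88, limma adjusted p = 0.0265).

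**Figure D4:**
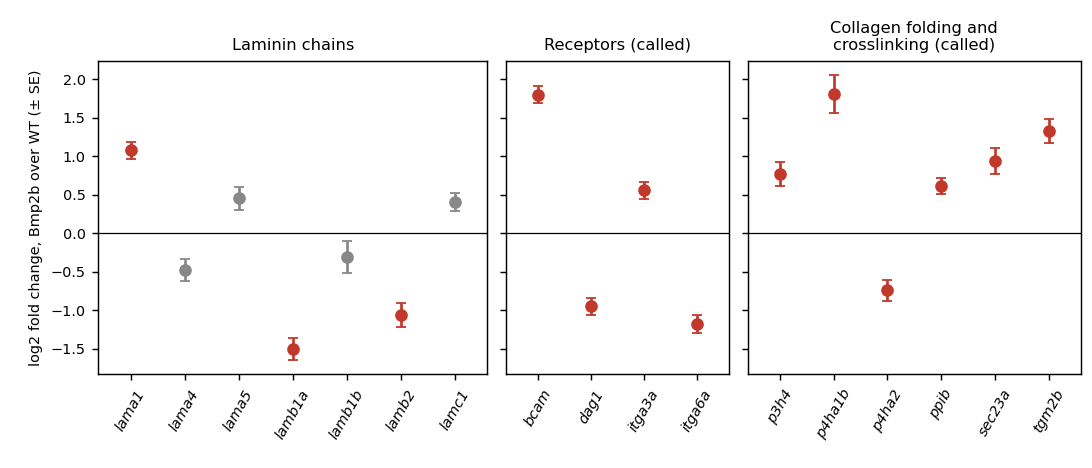
Log2 fold change of Bmp2b over wild type (y axis, points, with the limma standard error as bars; 2 arrays a group) for the 7 tested laminin chains, the 4 called receptors, and the 6 called genes of collagen folding and crosslinking. Red points passed an adjusted p of 0.05 and grey points did not; lamb1a has the lowest value, -1.50, and p4ha1b and bcam the highest, 1.81 and 1.80.

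Probes of the same gene were a further source of spread. Of 21 matrix genes with more than 1 tested probe, 12 had probes of both signs and 9 had probes of 1 sign. The 12 include efemp2b and emilin1a, whose values were smaller than their standard errors on both probes. Among called genes with several tested probes, lamb1a and fbln1 had 2 called probes each. sparc, dcn, lama1, col5a2a and fbln2 had 1 called probe each, and of their other tested probes those of dcn and lama1 had the opposite sign. The value was -0.05 for dcn, smaller than its standard error, and -0.38 for lama1.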

How the data were processed

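Analysis started from the table of raw median intensity per spot that the authors deposited (43803 spots, 4 arrays, single-colour Cy3). The submitters' processing notes name Agilent Feature Extraction, with no version. The authors' deposited processed intensities, which lie as low as 1.59 and served as an alternative, match the series' value table in all of its 43553 probes; how background was taken off is not given in the sources used here, and no column flags saturation. Here the raw intensities were corrected by normexp (offset 50), log2-transformed, quantile-normalized and averaged over spots of a probe. Probes at above 2 times the array's 5th percentile on at least 2 arrays were tested (24454) with limma 3.58.1 in R 4.3.3 (lmFit, eBayes, two-sided, Benjamini-Hochberg, checked on simulated data). Names came from the platform annotation (23667 probes with 1 symbol); 0 symbols changed by the current GRCz12tu gene table, used for names and neighbours only. No sequence is printed.

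Members and lists were chosen with earlier results of these data known. Named by rule were 5 marker genes, each member with a called probe, the 6 largest changes that missed the threshold, a list of well-known members, and called genes of the enzyme and receptor lists; other members were named after their values were seen. Alternatives covered scaling, background, the input table, the filter, probes, each array, wild type as 1 sample, the variance prior, slide and replicate number.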

Additional observations from a re-analysis of the deposited data

How the results depend on the processing

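The 7 higher and 3 lower matrix genes came to 0 and 0 in limma with scaling to the array median (10 at an unadjusted p under 0.05), with wild type as 1 sample (9, or 10 with trend and robust) and with the slide as a random block (11, with a correlation of 0.5 assumed because none could be estimated). In these settings 0 of all 11376 genes were called, save 0.448% higher and 0.404% lower with trend and robust. Scaling to the 75th percentile gave 4 higher and 1 lower, and the processed intensities so scaled 3 and 1. Leaving out 1 array in turn gave 0 to 29 higher and 0 to 15 lower. The basement membrane median (0.12) was -0.94 with median scaling, -0.014 with the mean over probes, 0.20 for genes above background on all 4 arrays, 0.23 with quantile-normalized processed intensities, and -0.048 to 0.15 without 1 array. The interstitial median (0.46) was -0.091 with median scaling, 0.93 and 0.97 with 75th percentile scaling of raw and processed intensities, 0.14 without the filter and 0.21 to 0.65 without 1 array. The median of all genes was 0.01, and 0.14, 0.17 and -0.89 with the 3 scalings to a percentile (raw and processed 75th, and median). Cyclic loess, no background correction, no filter, the mean over probes, the stricter filter and trend and robust on 4 arrays left both counts within 1.5 times.

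Some values changed sign. With median scaling, which moved the median of all genes to -0.89, these were col11a1a (0.16), col18a1a (-0.94), col1a2 (-1.02), col4a1 (-0.94), col5a1 (-0.13), col5a2a (-0.19), efemp2b (-0.077), emilin1a (-1.03), lama5 (-0.85), lamc1 (-0.89), lum (-0.077), thbs3b (-1.07), tncb (-0.33), p3h4 (-0.13), ppib (-0.83) and sec23a (-0.36). With 75th percentile scaling they were col11a1a (1.18), emilin1a (-0.0081), hspg2 (0.93), matn4 (0.13) and thbs3b (-0.043), and on processed intensities col11a1a (1.20), emilin1a (-0.063), hspg2 (0.98) and matn4 (0.13). Cyclic loess turned col11a1a (0.061), hspg2 (0.0072) and matn4 (0.18), quantile-normalized processed intensities col11a1a (0.22) and hspg2 (0.022), no background correction matn4 (0.0052), and the mean over probes col18a1a (-0.067), efemp2b (-0.0020), emilin1a (-0.00099) and matn4 (0.15). Over the 4 settings that leave out 1 array, col11a1a ranged over -0.15 to 0.11, emilin1a over -0.064 to 0.23, matn4 over -0.68 to 0.67, col1a2 over -1.51 to 1.91, col5a3b over -0.41 to 2.31 and hspg2 over -0.048 to 0.020; leaving out Bmp2b array 1 turned the first 3, Bmp2b array 2 the other 3, and wild-type array 2 matn4. The cause was not tested.

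Same-numbered arrays share only a number (correlation of their deviations 0.0935); with it as a replicate block 7 genes were higher and 3 lower, col5a1 and col15a1b among them and col5a2a and agrn not. With 2 arrays a group, and dim signal on Bmp2b array 1, lower levels of dim genes were hardly measurable: 9 tested matrix probes were below background on both Bmp2b arrays.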
